A study of Mus musculus with 20 samples.

Results

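Fatty acid desaturases and elongases were followed across 4 groups of mouse livers, as the 6 genes Fads1, Fads2, Elovl1, Elovl2, Elovl5 and Scd2. They were taken from the table of read counts by their symbols alone, and they were 6 of its 29915 genes. All 6 passed the filter on low counts, which left 13894 genes for testing. The livers came from male mice on chow, kept in 12 h of light and 12 h of dark. The groups were K556R refed, K556R fasted, wild-type refed and wild-type fasted, with 5 libraries each. K556R is a knock-in of the homeodomain factor Prox1 in hepatocytes that exchanges a lysine for arginine, so that this site cannot carry SUMO, a small protein tag. Cre recombination induced the exchange when mice were 8 weeks old. Collection followed after another 11 weeks, at zeitgeber time 15 to 17 h. Titles call the wild type Ctrl and K556R Cre, and effects of Cre and of K556R cannot be told apart. No source used here gives the promoter that drives Cre or the lengths of the fast and of refeeding. The labels do not tie each library to a separate animal, so p-values measure only the spread between these samples.

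Mammals cannot make polyunsaturated fatty acids from sugar and instead remodel linoleic and alpha-linolenic acid from the diet. Fads2 places the first new double bond, Elovl5 lengthens the product, and Fads1 places the next double bond, which yields arachidonic and eicosapentaenoic acid. Elovl2 lengthens these further on the way to docosahexaenoic acid (DHA), whose last step is a shortening in peroxisomes, and the liver is a main site of this route. SREBP-1c, made from Srebf1 and raised by insulin, and PPARα, made from Ppara and active in fasting, are both known to act on Fads1, Fads2 and Elovl5. The other 2 genes do not belong to this route by their known roles. Elovl1 lengthens saturated and monounsaturated acids to the very long chains of sphingolipids, and Scd2 is a stearoyl-CoA desaturase that makes monounsaturated acids. The set is therefore described below by gene and not as 1 pathway.

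Total counts ran from 33746054 to 50647297 per library. Levels are given in CPM, read counts scaled to a common library total, with TMM factors that correct for differences in library composition. The labels put 14 libraries in batch 1 and 6 in batch 2, and 3 of the 6 were K556R refed. Libraries are listed below with batch 1 before batch 2. Pck1, a gluconeogenic enzyme induced by fasting, measured 597 to 2393 CPM in K556R refed livers and 4871 to 7276 CPM in K556R fasted livers. In wild-type livers it measured 686 to 1427 CPM after refeeding and 5080 to 8016 CPM when fasted, so the feeding labels separated it without overlap. Prox1 averaged 75.5 ± 12.1 CPM in K556R refed, 105 ± 15.7 in K556R fasted, 110.1 ± 15.7 in wild-type refed and 185 ± 38.5 in wild-type fasted livers (SD, n = 5 each). Over both feeding states Prox1 was lower in K556R (log2 fold change −0.72, adjusted p = 0.00563, edgeR's quasi-likelihood test). Gene counts cannot show the amino acid exchange itself. Hepatocyte markers such as Alb and Apoa1 were present at a summed 114361 CPM or more in every library. The libraries numbered 1 of batch 1 in K556R refed and in K556R fasted stood apart on the second principal component, at −57.3 and −39.5, against −8.06 to 10.7 in the other 18. Their summed lymphocyte markers were 19.7 and 16.0 CPM, against 4.09 to 11.3 CPM in the other 18, and their proliferation markers 60.1 and 31.7 CPM, against 12.0 to 25.4 CPM. Calls and signs of the 6 genes that change without these 2 libraries are given both ways. Other gene lists and markers were tested in all 20 libraries only, where the genes most like each of the 6 were also chosen.

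Gene positions refer to GRCm38 (mm10) and were read from the GENCODE M21 annotation. Fads1 lies at chr19:10182888-10196877 on the plus strand and Fads2 at chr19:10062765-10101746 on the minus strand. The pair point away from each other, their starts are 81142 bases apart, and no other protein-coding gene lies between them. Elovl1 lies at chr4:118428093-118432953 (plus), Elovl2 at chr13:41182381-41220405 (minus) and Elovl5 at chr9:77917364-77984519 (plus). Scd2 lies at chr19:44293674-44306864 (plus), and Scd1, the main stearoyl-CoA desaturase of liver, lies at chr19:44394455-44407879 (minus), with Scd4 between them. RefSeq promoter windows of GRCm38.p6, from 250 bases before to 50 bases after the RefSeq gene start, were found for 4 of the 6 genes. For Fads2 the RefSeq start lies 243 bases inside the GENCODE gene, so its window is not shown. For the other 3 the starts differ by at most 2 bases. These windows set 2 elongases called on refeeding beside 1 that was not. Elovl1 (chr4:118427843-118428142, plus) and Elovl5 (chr9:77917115-77917414, plus) were higher after refeeding in at least 1 genotype, and Elovl2 (chr13:41220354-41220653, minus) was called in neither. Each is printed 5′ to 3′ on the strand of its gene, and capitals mark matches to the motifs described after them.
Elovl1: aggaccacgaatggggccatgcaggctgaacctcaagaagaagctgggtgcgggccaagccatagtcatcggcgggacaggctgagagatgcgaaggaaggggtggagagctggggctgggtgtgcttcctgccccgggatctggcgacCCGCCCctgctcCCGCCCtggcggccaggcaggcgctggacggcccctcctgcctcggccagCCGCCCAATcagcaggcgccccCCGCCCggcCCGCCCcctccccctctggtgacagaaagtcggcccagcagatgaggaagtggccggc
Elovl5: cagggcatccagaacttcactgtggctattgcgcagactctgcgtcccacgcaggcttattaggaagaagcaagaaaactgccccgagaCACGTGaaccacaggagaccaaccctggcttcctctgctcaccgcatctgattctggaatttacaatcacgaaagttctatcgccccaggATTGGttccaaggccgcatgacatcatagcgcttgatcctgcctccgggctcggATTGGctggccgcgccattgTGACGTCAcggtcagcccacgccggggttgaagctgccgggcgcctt
Elovl2: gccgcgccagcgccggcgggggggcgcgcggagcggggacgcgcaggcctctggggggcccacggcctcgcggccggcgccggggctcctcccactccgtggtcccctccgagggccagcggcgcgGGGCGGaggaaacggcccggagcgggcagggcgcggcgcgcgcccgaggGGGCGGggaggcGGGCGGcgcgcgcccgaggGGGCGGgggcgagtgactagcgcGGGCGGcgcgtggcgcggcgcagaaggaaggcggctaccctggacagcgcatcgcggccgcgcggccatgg

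Matches to 7 motifs were counted on both strands in these windows and in all 32851 promoters of the same length. The GC box GGGCGG, bound by Sp1-type factors, occurred 5 times each in Elovl1 and Elovl2, and 35.7% of all promoters hold it. The CCAAT box CCAAT, bound by NF-Y, occurred at 1 place in Elovl1 and at 2 places in Elovl5, and 37.4% of all promoters hold it. In Elovl1 the CCAAT box at −35 overlaps the GC box at −39, which together read as 1 run of capitals. The E-box CACGTG, at −161 in Elovl5 alone among the 3, is held by 7.15% of all promoters. The cAMP response element TGACGTCA, at position 4 of Elovl5, is held by 1.79%. No match was found to the sterol regulatory element TCACNCCAC (1.24% of all promoters), or to the direct repeats of nuclear receptors named direct repeat 1 (0.0396%) and direct repeat 4 (0.0152%). Positions count from the RefSeq gene start to the first letter as printed. A match describes these letters only and is not evidence of binding.

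Per length of exon, the 4 enzymes of the polyunsaturated route were far more abundant than Elovl1 and Scd2 in every group. In K556R refed livers Fads1 averaged 192 ± 19.5 CPM per kb, Elovl5 147 ± 30.3, Elovl2 127 ± 20.9 and Fads2 127 ± 16.9. In the same livers Elovl1 averaged 25.9 ± 2.78 and Scd2 14.6 ± 3.32 CPM per kb (SD, n = 5 in each group). In K556R fasted livers the order was Fads1 (188 ± 29.1 CPM per kb), Fads2 (162 ± 12.8), Elovl2 (139 ± 23.3), Elovl5 (120.0 ± 20.5), Elovl1 (13.3 ± 1.05) and Scd2 (9.28 ± 3.43). By group mean Fads1 was thus at the top in both feeding states of K556R livers, while Elovl5 and Fads2 traded places. The libraries of Elovl5 and Fads2 overlapped in both states. Wild-type refed livers had Fads1 (189 ± 13.5 CPM per kb), Elovl5 (143 ± 33.7), Fads2 (124 ± 6.09), Elovl2 (118 ± 4.61), Elovl1 (25.2 ± 2.77) and Scd2 (13.2 ± 2.33). Wild-type fasted livers had Fads1 (185 ± 24.0 CPM per kb), Fads2 (176 ± 21.0), Elovl2 (136 ± 16.3), Elovl5 (88.7 ± 14.4), Elovl1 (13.6 ± 1.54) and Scd2 (6.76 ± 1.85). Most neighbours in these orders had overlapping ranges. The genes share libraries, so overlap of ranges does not decide their order, and the order within each library was not computed. Ranges did not overlap for the drop from the lowest of the 4 abundant genes to Elovl1 in every group. The same held for Elovl2 above Elovl5 in wild-type fasted livers, and for Elovl1 above Scd2 in all groups but K556R fasted. Counts behind these levels ran from 19122 to 39390 for Fads1 and from 796 to 2817 for Elovl1.

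**Figure D1:**
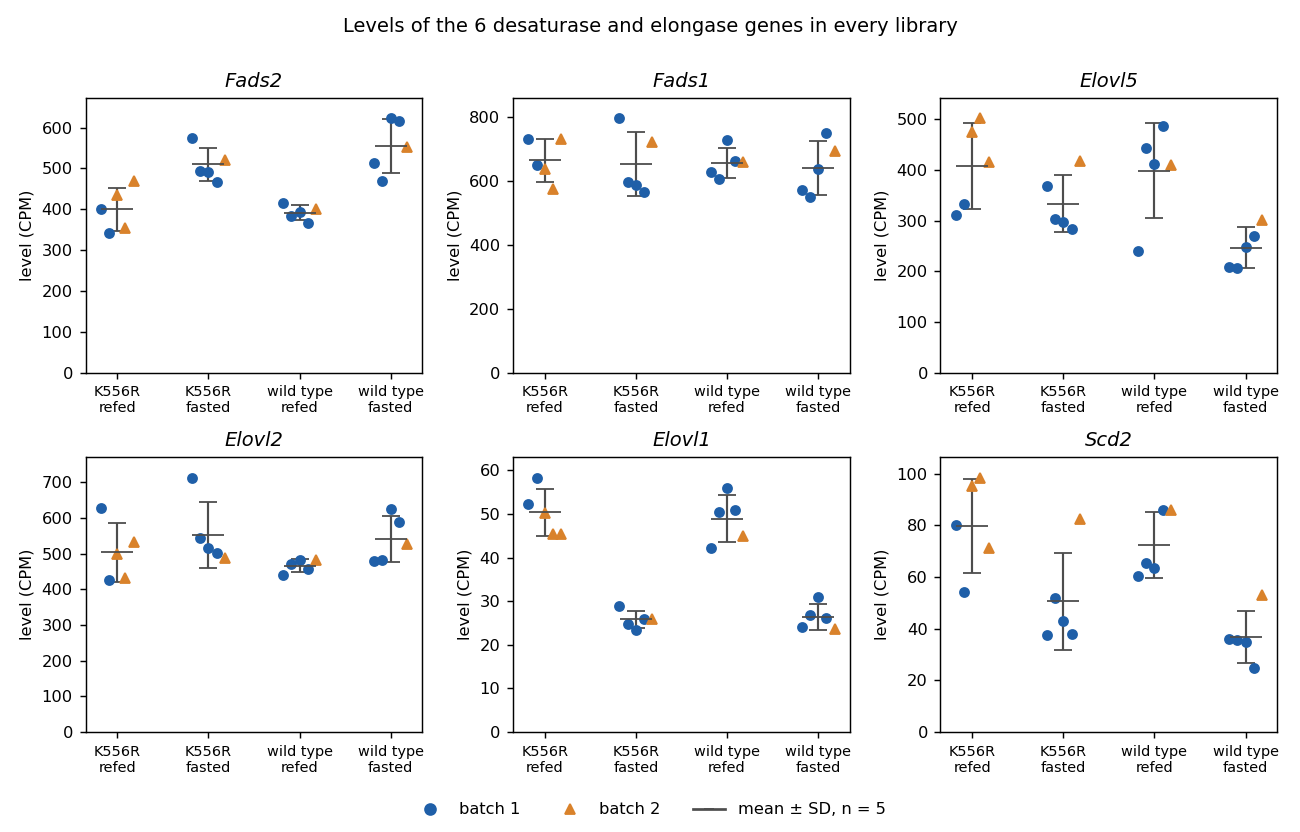
Level in CPM of each of the 6 genes in every library (circles for batch 1, triangles for batch 2) with the group mean and SD (n = 5 per group), in the order K556R refed, K556R fasted, wild-type refed and wild-type fasted. Elovl1 separates by feeding in both genotypes, at 42.2 to 58.3 CPM in refed and 23.4 to 31.1 CPM in fasted livers, while the Fads1 groups lie over each other.

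Some of the 6 genes differed between refed and fasted livers, and others did not pass the test. In K556R livers 3 of the 6 passed the test between refed and fasted (Elovl1 and Scd2 higher, Fads2 lower), where 39.9% of all genes tested passed, 19.6% higher and 20.3% lower. In wild-type livers 4 of the 6 passed (Elovl1, Elovl5 and Scd2 higher, Fads2 lower), where 45.1% of all genes passed, 20.9% higher and 24.2% lower. Counts over 6 genes are not a result about the set against such a background, and the genes are described singly. A gene was called at an adjusted p under 0.05 in edgeR's quasi-likelihood test, with Benjamini-Hochberg adjustment over all 13894 genes and batch as a term. The median log2 fold change over the 6 genes was 0.072 in K556R and 0.37 in wild-type livers, beside 0.0069 and −0.012 over all genes tested. In tissue RNA, fewer cells of a type and less RNA per cell cannot be told apart.

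Fads2, the desaturase that opens the route, was lower after refeeding in both genotypes. Its levels were 400.2, 342, 435, 354 and 469 CPM in K556R refed livers, against 574, 494, 492, 468 and 521 CPM in K556R fasted livers. The K556R groups met at 1 pair of libraries, the highest refed one (batch 2) and the lowest fasted one (batch 1), and within each batch every refed library was lower. The log2 fold change was −0.38 ± 0.096 (SE, adjusted p = 0.00349, edgeR). In wild-type refed livers Fads2 measured 417, 383, 393, 365 and 401 CPM, against 513, 469, 624, 616 and 552 CPM in wild-type fasted livers. Every wild-type refed library lay below every wild-type fasted one, and the log2 fold change was −0.50 ± 0.091 (SE, adjusted p = 0.000146, edgeR). Batch 1 alone gave −0.45 in K556R and −0.51 in wild-type livers, both called. Batch 2 alone, where 3 of the 4 groups have 1 library and are assumed to vary like K556R refed, gave −0.31 (adjusted p = 0.192) and −0.45 (0.184).

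Fads1, its divergent neighbour and the second desaturase of the route, did not follow it. Fads1 measured 731, 649, 636, 573 and 731 CPM in K556R refed livers, against 796, 595, 588, 563 and 720 CPM in K556R fasted livers. In wild-type livers it measured 627.5, 605, 728, 662 and 658 CPM after refeeding, against 572, 549, 635, 749.5 and 693 CPM when fasted. Refed and fasted libraries were intermixed in both genotypes. The log2 fold change was 0.0099 ± 0.11 in K556R livers (SE, adjusted p = 0.953, edgeR) and 0.037 ± 0.10 in wild-type livers (adjusted p = 0.804), which does not show that the groups were equal. The ratio of Fads1 to Fads2 within a library, which does not depend on scaling, therefore separated the feeding states. It was 1.67 ± 0.182 in K556R refed and 1.27 ± 0.101 in K556R fasted livers, and 1.68 ± 0.149 in wild-type refed and 1.16 ± 0.0927 in wild-type fasted livers (SD, n = 5 each). The lowest refed library, a K556R one, stood at 1.46 and the highest fasted library, also K556R, at 1.39. This ratio was computed as a description and was not tested.

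**Figure D2:**
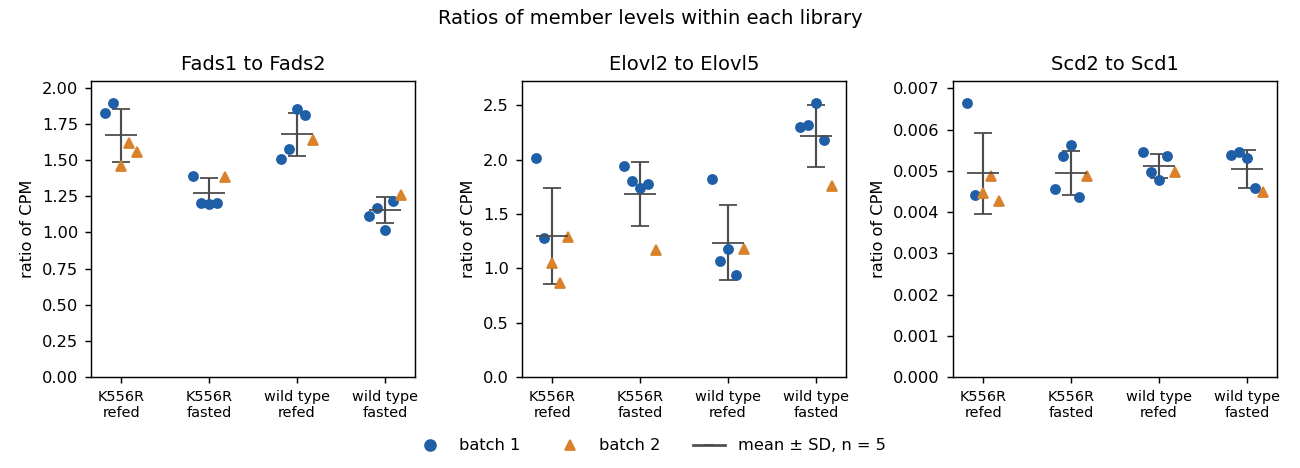
Ratio of CPM within each library (points) for Fads1 to Fads2, Elovl2 to Elovl5 and Scd2 to Scd1, with circles for batch 1, triangles for batch 2 and the group mean and SD (n = 5 per group). Fads1 to Fads2 is at 1.46 to 1.90 in the 10 refed libraries and at 1.02 to 1.39 in the 10 fasted ones, and Elovl2 to Elovl5 overlaps between feeding states.

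Elovl5, the elongase that acts between the desaturases, was higher after refeeding in wild-type livers. Its levels were 241, 443, 411, 488 and 409.5 CPM in wild-type refed livers, against 208, 207, 248, 270 and 301 CPM in wild-type fasted livers. Of the refed libraries 4 lay above all fasted ones, and the library numbered 1 of batch 1 lay within the fasted range. The log2 fold change was 0.70 ± 0.14 (SE, adjusted p = 0.000473, edgeR), 0.76 in batch 1 alone (adjusted p = 0.00284) and 0.45 in batch 2 alone (0.0972). In K556R livers Elovl5 measured 312, 333, 476, 503 and 415 CPM after refeeding, against 369, 302, 297, 283 and 417 CPM when fasted. These groups overlapped in both batches, and the log2 fold change of 0.13 ± 0.15 did not pass the test (SE, adjusted p = 0.519, edgeR). Levels followed the batch in part, since the 3 K556R refed libraries of batch 2 (415 to 503 CPM) all exceeded the 2 of batch 1 (312 and 333 CPM).

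Elovl2, the elongase of the steps before DHA, was not called in either genotype. It measured 629, 428, 499, 432 and 533 CPM in K556R refed livers, against 714, 544, 516, 503 and 487 CPM in K556R fasted livers. In wild-type livers it measured 439, 471, 483, 458 and 481 CPM after refeeding, against 479, 481.5, 624, 589 and 529 CPM when fasted. The wild-type refed values were tightly grouped and touched the low end of the fasted ones. The log2 fold change was −0.10 ± 0.12 in K556R livers (SE, adjusted p = 0.541, edgeR) and −0.21 ± 0.11 in wild-type livers (adjusted p = 0.135). Without the 2 libraries that stood apart, both K556R, the wild-type change kept its size at −0.21 but passed edgeR's test (adjusted p = 0.0327). All groups share 1 estimate of spread in this fit. Those 2 libraries had the highest Elovl2 levels of their groups. The ratio of Elovl2 to Elovl5 averaged 1.30 ± 0.439 in K556R refed and 1.68 ± 0.298 in K556R fasted livers, and 1.23 ± 0.343 in wild-type refed and 2.22 ± 0.283 in wild-type fasted livers (SD, n = 5 each). Without the 2 libraries that stood apart the K556R means were 1.12 after refeeding and 1.62 when fasted.

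Elovl1, the elongase of saturated and monounsaturated very long chains, was higher after refeeding in both genotypes and had the lowest adjusted p of the 6 genes. It measured 52.3, 58.3, 50.3, 45.4 and 45.4 CPM in K556R refed livers, against 28.9, 24.8, 23.4, 26.0 and 26.0 CPM in K556R fasted livers. The fold change was 2.02 (log2 1.02 ± 0.086 SE, adjusted p = 5.2e-08, edgeR). In wild-type livers it measured 42.2, 50.4, 55.9, 51.0 and 45.0 CPM after refeeding, against 24.0, 26.9, 31.1, 26.2 and 23.6 CPM when fasted. The fold change was 1.86 (log2 0.89 ± 0.083 SE, adjusted p = 6.64e-08, edgeR). Every refed library exceeded every fasted one in each genotype and in each batch. The share of all genes tested that separate in this way on feeding was not computed. Such ranges, also those of Fads2 and Scd2 in wild-type livers, are description only. Batch 1 alone gave log2 fold changes of 1.10 and 0.89 for K556R and wild type, and batch 2 alone gave 0.86 and 0.94, all called. Elovl1 overlaps Cdc20, a cell cycle gene, by 53 bases on the opposite strand, and no source used here says whether counting used strand.

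Scd2, the minor stearoyl-CoA desaturase of adult liver, had higher counts after refeeding in both genotypes, but what was counted is uncertain. Scd2 measured 80.0, 54.2, 95.1, 98.4 and 71.1 CPM in K556R refed livers, against 37.7, 52.1, 43.2, 37.8 and 82.5 CPM in K556R fasted livers. The log2 fold change was 0.46 ± 0.16 (SE, adjusted p = 0.0228, edgeR). In wild-type livers it measured 60.4, 65.3, 63.5, 86.1 and 86.1 CPM after refeeding, against 36.1, 35.6, 35.0, 24.8 and 52.9 CPM when fasted. The log2 fold change was 0.99 ± 0.15 (SE, adjusted p = 2.82e-05, edgeR). Wild-type groups did not overlap, and the K556R groups did, through the single fasted library of batch 2 at 82.5 CPM. The K556R call did not hold in several fits. It was lost without K556R refed library 1 of batch 1 (0.31, adjusted p = 0.14), without K556R fasted library 1 (0.41, 0.0521) or 4 (0.41, 0.0543) of batch 1, and without both libraries that stood apart (0.26, 0.226). It was also lost with only the K556R groups in the fit (0.45, 0.0525). Batch 1 alone gave 0.65 (adjusted p = 0.0191) and batch 2 alone 0.10 (0.745) in K556R livers, beside 1.07 (0.00014) and 0.71 (0.118) in wild-type livers.

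Scd1, the neighbouring paralog, had far higher levels, and the Scd2 level followed it from library to library. Scd1 measured 12043, 12274, 21278, 20170.0 and 16635 CPM in K556R refed livers, against 8277, 9723, 7677, 8673 and 16916 CPM in K556R fasted livers. In wild-type livers Scd1 measured 11061, 13119, 13308, 16079 and 17312 CPM after refeeding, against 6708, 6521, 6594, 5411 and 11792 CPM when fasted. The ratio of Scd2 to Scd1 averaged 0.00494 ± 0.00098 in K556R refed, 0.00495 ± 0.00053 in K556R fasted, 0.00511 ± 0.00029 in wild-type refed and 0.00504 ± 0.00047 in wild-type fasted livers (SD, n = 5 each). Single libraries ran from 0.00427 to 0.00562 except K556R refed library 1 of batch 1, at 0.00665. The 4 group means of this ratio lay within 1 SD of each other, although both genes differed between feeding states. Of the 50-base windows in Scd2 transcripts, 2.66% also occur in Scd1 transcripts, and of the 100-base windows 0.879%. Read the other way, 2.97% of the 50-base and 0.982% of the 100-base windows of Scd1 occur in Scd2. If all Scd1 reads from such windows were counted for Scd2, they would amount to 4.46 to 6.94 times the Scd2 counts at 50 bases and to 1.48 to 2.30 times at 100 bases. The multiple was above 1 in 20 of 20 libraries. If reads fall evenly along Scd1, at most a part of such reads can have been counted for Scd2. No source used here gives the read length or the rule for shared reads. How much of the Scd2 count is Scd1 sequence was not tested. By the same measure no window of Fads1, Elovl2 or Elovl5 occurred in another gene, and for Fads2 (shared with Fads3) and Elovl1 (shared with Cdc20) it was 0.152% and 0.139% of 50-base windows.

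**Figure D3:**
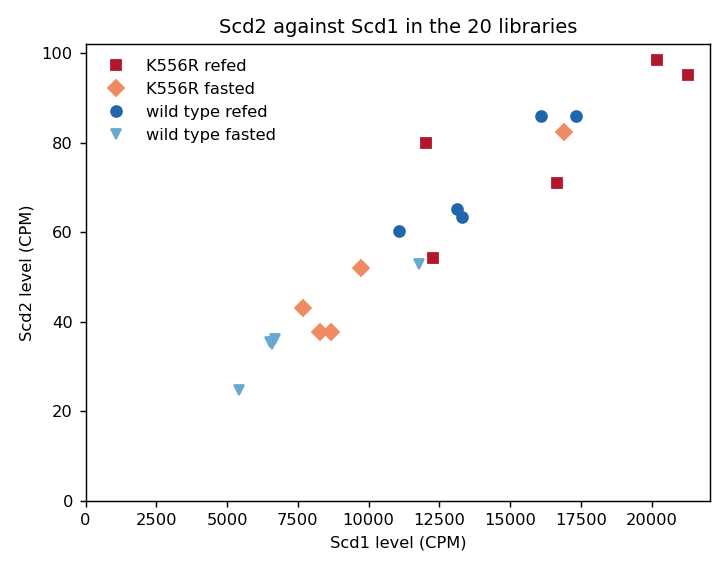
Scd2 level against Scd1 level (CPM, linear axes) in the 20 libraries, with 1 symbol per group. Scd2 spans 24.8 to 98.4 CPM and Scd1 5411 to 21278 CPM, and the points follow 1 line but for a K556R refed library at 80.0 CPM of Scd2 and 12043 CPM of Scd1.

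None of the 6 genes passed the test between genotypes in fasted livers, in refed livers or over both, by edgeR or by DESeq2. The background was as low: edgeR called 0% of all genes in fasted livers, 0% in refed livers and 0.0288% over both (0.0072% higher and 0.0216% lower), while DESeq2 called 60, 3 and 40 genes. At an unadjusted p under 0.05, edgeR gave 2 of the 6 genes in fasted livers, 0 in refed livers and 0 over both, beside 1136, 693 and 1288 of all genes. The 2 were Elovl5 and Scd2, which had higher fitted levels in K556R fasted than in wild-type fasted livers without passing the adjusted test. For Elovl5 the log2 fold change was 0.43 ± 0.14 (SE, unadjusted p = 0.00675, adjusted p = 0.396, edgeR). Within batch 1 the K556R fasted libraries (283 to 369 CPM) all lay above the wild-type fasted ones (207 to 270 CPM), and in batch 2 the single libraries stood at 417 and 301 CPM. For Scd2 it was 0.44 ± 0.15 (SE, unadjusted p = 0.0094, adjusted p = 0.426, edgeR), with batch 1 libraries at 37.7 to 52.1 CPM in K556R fasted and 24.8 to 36.1 CPM in wild-type fasted livers. Scd1 stood at 0.46 ± 0.11 (SE, unadjusted p = 0.000638, adjusted p = 0.238, edgeR), and its batch 1 libraries did not overlap either, at 7677 to 9723 CPM in K556R and 5411 to 6708 CPM in wild type. The share of all genes tested whose batch 1 libraries separate in this way was not computed, so these ranges are description only.

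The remaining genotype differences were small. In fasted livers the log2 fold changes of Fads1 (0.028), Elovl1 (−0.024) and Elovl2 (0.031) were within 1 standard error of 0, and that of Fads2 was −0.12 ± 0.091 (SE, adjusted p = 0.819, edgeR). In refed livers the extremes were −0.14 for Elovl5 and 0.14 for Elovl2, with standard errors up to 0.16, and both depended on which libraries entered. With 1 library left out at a time Elovl5 ran from −0.25 to −0.042 and Elovl2 from 0.023 to 0.23. Elovl5 was 0.033 with no batch term and 0.17 in batch 2 alone, and Elovl2 was 0.0042 without the 2 libraries that stood apart. Fads1 and Fads2 stood at 0.00063 and −0.0019 there. A missed test does not show that the genotypes were alike.

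**Figure D4:**
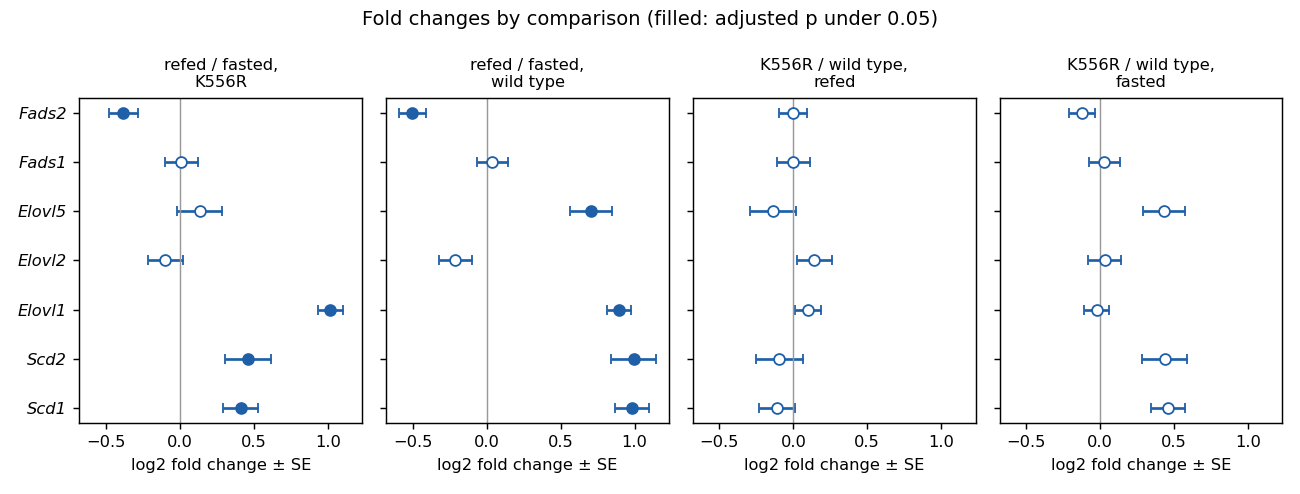
Log2 fold change with SE of each of the 6 genes and of Scd1 in the comparisons of refed with fasted and of K556R with wild type, from the fit over all 20 libraries, with filled symbols for an adjusted p under 0.05. Elovl1 lies near 1 in both feeding comparisons (1.02 and 0.89), and Elovl5 and Scd2 lie higher in wild-type feeding (0.70 and 0.99) than in K556R feeding (0.13 and 0.46), a difference that did not pass its own test.

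Elovl5 was called on refeeding in wild-type livers and not in K556R livers, and the difference between the feeding effects was tested directly. The interaction, the feeding effect in K556R minus that in wild type, was −0.57 ± 0.21 for Elovl5 (SE, unadjusted p = 0.0132) and −0.53 ± 0.22 for Scd2 (unadjusted p = 0.0243), and the adjusted p was 0.999687 for both (edgeR). It was −0.57 ± 0.17 for Scd1 (SE, unadjusted p = 0.00254, adjusted p = 0.999687, edgeR). For Fads1, Fads2, Elovl1 and Elovl2 it was −0.027, 0.12, 0.12 and 0.11. No gene of the table passed by edgeR (0%, with 553 at an unadjusted p under 0.05), and DESeq2 called 2 genes, neither of them among the 6. The interaction had the same sign in batch 1 alone and batch 2 alone for Elovl5 (−0.72 and −0.29) and for Scd2 (−0.41 and −0.61), with no call. So the different outcomes of Elovl5 in the 2 genotypes were not shown to differ.

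The other genes of fatty acid desaturation and elongation were followed as lists of related genes. Of 7 tested relatives (Fads3, Fads6, Scd1 and 4 more), 4 rose on refeeding in K556R livers (Elovl6, Fads3, Fads6 and Scd1) and 1 fell (Elovl7), beside 19.6% of all genes higher and 20.3% lower. In wild-type livers 3 rose (Elovl6, Fads3 and Scd1) and 0 fell, beside 20.9% higher and 24.2% lower. Elovl6, the elongase of palmitate in fatty acid synthesis, averaged 29.9 ± 10.1 CPM in K556R refed and 8.21 ± 1.74 CPM in K556R fasted livers, and 38.1 ± 11.2 CPM in wild-type refed and 9.35 ± 4.15 CPM in wild-type fasted livers (SD, n = 5 each). Its log2 fold changes were 1.53 (adjusted p = 6.53e-05, edgeR) and 2.06 (1.15e-06). Fads3, a desaturase acting on sphingoid bases and trans fatty acids, rose by 0.84 and 0.77 on the log2 scale in K556R and wild-type livers. The list medians were 0.41 and 0.20, beside 0.0069 and −0.012 over all genes tested.

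Elongases and desaturases work with partner enzymes and electron donors. Of 6 elongation cycle partners, 0 rose and 1 fell in K556R livers, where 39.9% of all genes were called, and 1 rose and 1 fell in wild-type livers, where 45.1% were. Ptplad1, a dehydratase of the cycle (also named Hacd3), fell by 0.27 and 0.24 in K556R and wild-type livers on the log2 scale (adjusted p = 0.0233 and 0.0289, edgeR), and Hsd17b12, its ketoreductase, rose by 0.30 in wild-type livers (adjusted p = 0.0108, edgeR) and stood at 0.20 in K556R livers (0.103). Tecr, the reductase of the last step, stood at 0.099 and 0.17 and was not called. Of 5 tested electron donors of the desaturases, 1 rose in K556R livers, and 2 rose and 1 fell in wild-type livers, against the same shares of 39.9% and 45.1%. Cyb5r3 and Cyb5r1, both cytochrome b5 reductases, changed by 0.31 and −0.34 in wild-type livers (log2, adjusted p = 0.0288 and 0.0301, edgeR). In K556R livers they stood at 0.20 and 0.012 and were not called. Cyb5, a cytochrome b5 also named Cyb5a, was called in neither genotype and stood at −0.068 in K556R livers. Cyb5b, an outer mitochondrial membrane cytochrome b5, was called in both genotypes, at 649 ± 38.3 CPM in K556R refed and 338 ± 35.3 CPM in K556R fasted livers. It measured 644 ± 42.5 CPM in wild-type refed and 325 ± 39.8 CPM in wild-type fasted livers (SD, n = 5 each), with log2 fold changes of 0.90 and 0.99 (adjusted p = 1.79e-07 and 2.14e-08, edgeR).

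Another list holds genes that activate polyunsaturated acids and place them in phospholipids. Of 12 tested, 3 rose and 4 fell in K556R livers, where 39.9% of all genes were called, and 2 rose and 4 fell in wild-type livers, where 45.1% were. Acsl3, an acyl-CoA synthetase of lipid droplets and the endoplasmic reticulum, rose by 1.37 in K556R and 1.43 in wild-type livers (log2, adjusted p = 6.1e-08 and 8.78e-09, edgeR). Acsl5, another acyl-CoA synthetase, rose by 0.31 and 0.62. Acsl1, the main acyl-CoA synthetase of liver, fell by 0.51 and 0.43, and Mboat7, which places arachidonic acid in phosphatidylinositol, fell by 0.28 and 0.31. Of 10 genes of the peroxisomal steps of DHA synthesis, 1 rose and 4 fell in K556R livers, and 1 rose and 3 fell in wild-type livers, beside the same 39.9% and 45.1% of all genes. Ehhadh, a bifunctional enzyme of peroxisomal β-oxidation, fell by 1.05 and 0.78 (adjusted p = 0.00052 and 0.00281, edgeR). The list medians were −0.12 and 0.032 for activation and acylation and −0.20 and −0.077 for the peroxisomal genes, for K556R and wild-type livers.

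The last list holds transcription factors known to act on these genes and proteins that retain or process SREBP. Of 13 tested, 4 rose and 5 fell on refeeding in K556R livers, beside 19.6% of all genes higher and 20.3% lower. In wild-type livers 5 rose and 4 fell, beside 20.9% higher and 24.2% lower. Srebf1 measured 445 ± 127 CPM in K556R refed and 68.2 ± 8.24 CPM in K556R fasted livers, and 366 ± 70.2 CPM in wild-type refed and 67.6 ± 22.3 CPM in wild-type fasted livers (SD, n = 5 each). Its log2 fold changes were 2.48 and 2.45 (adjusted p = 6.16e-08 and 2.19e-08, edgeR). Insig1, which retains SREBP in the endoplasmic reticulum and is itself an SREBP target, rose by 1.77 and 1.89, and Mlxipl, which encodes the glucose-sensing factor ChREBP, rose by 1.16 and 1.22. Ppara fell by 1.09 and 1.14 (adjusted p = 2.04e-08 and 3.15e-09, edgeR). Srebf1 rose and Ppara fell in the same livers in which Fads2 fell and Fads1 was not called. In the genotype comparisons Prox1, lower over both feeding states, was the only gene called on these lists.

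From library to library, after group and batch means were removed, Fads1, Fads2 and Elovl2 varied together. Over the 20 libraries Pearson's r of log2 CPM was 0.78 between Fads2 and Elovl2, 0.72 between Fads1 and Elovl2 and 0.66 between Fads1 and Fads2. Without the 2 libraries that stood apart these were 0.84, 0.50 and 0.58. Elovl5 stood apart from them, with r of 0.30 to Fads1, 0.050 to Fads2 (−0.034 without the 2 libraries) and 0.24 to Elovl2. Its r was 0.56 to Elovl1 (0.52 without them) and 0.45 to Scd1 (0.53), near the values within the trio. Srebf1 ran against the trio, with r of −0.61 to Fads1, −0.60 to Fads2 and −0.72 to Elovl2. This was not particular to them, since Elovl1 stood at −0.49 to Srebf1, beside −0.18 for Elovl5 and −0.14 for Scd2 (0.062 without the 2 libraries). The genes most like each member were Scpep1 (0.87) for Fads1, Lmo7 (0.81) for Fads2, Bcmo1 (0.89) for Elovl2, Acsl5 (0.85) for Elovl5, Rtp3 (0.86) for Elovl1 and Hspa4l (0.81) for Scd2. Next came Ddx39 (0.80) and Alg8 (0.80) for Fads1, Gtf2b (0.80) for Fads2, and Ccnd1 (0.88) and C9 (0.88) for Elovl2. For Elovl5 they were Tfpi2 (0.80) and Cstf3 (0.79), for Elovl1 Apex1 (0.81) and Abcb11 (0.79), and for Scd2 Pm20d2 (0.80) and Scd1 (0.79, and 0.87 without the 2 libraries). These are descriptions over libraries that share scaling and tissue composition, and r over all pairs of genes was not computed as a background.

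Markers of liver cell types were followed in the same fit. On refeeding it called 19.6% of all genes higher and 20.3% lower in K556R livers, and 20.9% higher and 24.2% lower in wild-type livers. The 10 hepatocyte markers summed to 114361 to 128351 CPM in K556R refed and 148165 to 159618 CPM in K556R fasted livers, and to 117775 to 127310 CPM in wild-type refed and 123922 to 171963 CPM in wild-type fasted livers. Of these 10, 6 were called lower in K556R and 5 lower and 1 higher in wild-type livers on refeeding. The 7 cholangiocyte markers summed to 48.6 to 64.2 CPM in K556R refed and 40.5 to 56.7 CPM in K556R fasted livers, and to 47.6 to 55.9 CPM in wild-type refed and 38.7 to 47.5 CPM in wild-type fasted livers. Of the 6 tested, 1 was called higher in each genotype. The 8 sinusoidal endothelial markers summed to 146 to 185 CPM in K556R refed and 179 to 218 CPM in K556R fasted livers, and to 152 to 167 CPM in wild-type refed and 143 to 224 CPM in wild-type fasted livers. Of these 8, 3 were called lower in K556R and 4 in wild-type livers, and of 7 tested lymphocyte markers 1 was called higher in each. Of 10 stellate cell markers 2 were called higher and 1 lower in K556R livers and 0 in wild-type livers. Of 9 tested proliferation markers 2 were called higher and 2 lower in K556R livers and 1 lower in wild-type livers. Of 9 Kupffer cell markers 0 were called in K556R livers and 1 lower in wild-type livers. Of 2 tested adipocyte markers 1 was called lower in K556R livers and 0 were called in wild-type livers. No marker of the 8 lists was at 0 in all libraries except 1 of the 6 adipocyte markers. In the genotype comparisons within a feeding state 0 markers were called. The part of cell composition in the feeding results was not tested.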

How the data were processed

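Poly(A) RNA of 20 liver libraries was measured. The authors deposited read counts per gene symbol, 29915 genes and 1 column per library, which were assumed to be raw. The submitters' processing notes name edgeR, DESeq2, STAR-Fusion, TopHat, HTSeq and STAR and the build mm10. Roles, versions, annotation, strand setting and the rule for shared reads were not given in the sources used here. Libraries were grouped by the genotype and treatment labels, with batch as labelled. Tests used the robust quasi-likelihood F test of edgeR 4.0.16 in R 4.3.3, with TMM scaling and genes kept by filterByExpr (at least 10 counts, 15 in total), in 1 fit of 4 group means and batch, with Benjamini-Hochberg adjustment over 13894 genes. The test was checked on simulated data. DESeq2 1.42.0 and limma 3.58.1, other scalings and filters, each batch alone, a replicate block and leaving out libraries were alternatives. The 6 genes and all lists were chosen with earlier results of these data known. Text names the 6 genes, up to 4 genes per list by the lowest p in the feeding comparisons, and also Cyb5. For each of the 6 it names the 3 genes most like it, among genes with a mean of at least 1 log2 CPM.

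Some genes chosen by these rules are not reported here. Repeat numbers were not used to pair libraries, for the values given in the closing section. Levels per kb used exon lengths of GENCODE M21. Precision is limited by 5 libraries per group.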

Additional observations from a re-analysis of the deposited data

Results flagged for a closer look

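Of the 24 sets of 5 libraries (6 genes in 4 groups) examined for a library far from the rest, 1 was marked, where chance marks about 1 in 20. Elovl2 measured 714 CPM in K556R fasted library 1 of batch 1, against 487 to 544 CPM in the other 4 libraries of that group, a gap of 0.748 of the whole range by Dixon's criterion. That library also stood apart on the second principal component (−39.5) and in its summed proliferation markers (31.7 CPM). Without it and K556R refed library 1 of batch 1, the fitted Elovl2 difference between K556R and wild type was −0.078 in fasted livers and 0.0042 in refed livers, against 0.031 and 0.14 with them, and it was called in neither fit. The part of that library's composition in its Elovl2 level was not tested.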

How the results depend on the processing

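All called feeding changes of the 6 genes kept their direction in every alternative, and the calls of Elovl1 held in all of them. Batch 2 alone (6 libraries) lost the feeding calls of the other genes, and the part of sample number in this was not tested. The Scd2 call in K556R feeding was lost in the fits given in the report. No setting called any of the 6 genes in a genotype comparison or the interaction. Values that changed sign were all uncalled, and the cause was not tested. For the refed genotype comparison, Fads1 was −0.0062 with RLE scaling, −0.0090 by DESeq2, −0.087 by limma, −0.011 with no filter on low counts, −0.0023 with a filter at 1 CPM, −0.033 in batch 2 alone and −0.082 without the 2 libraries set apart. In it Fads2 was 0.0077 with upper-quartile scaling, 0.029 with no batch term and 0.056 in batch 2 alone, Elovl5 was 0.033 and 0.17, and Scd2 0.14 and 0.028 in these last 2 fits. For the fasted genotype comparison, Elovl1 was 0.0054 with upper-quartile scaling and 0.13 in batch 2 alone, Elovl2 was −0.12 in batch 2 alone and −0.078 without the 2 libraries, and Fads1 −0.062 without them. Over both feeding states, Fads1 was −0.025 by limma and −0.072 without the 2 libraries, and Elovl2 −0.056 in batch 2 alone and −0.037 without them. In feeding, Fads1 in K556R was −0.030 by limma and −0.15 in batch 2 alone, Elovl2 in K556R 0.0091 and Fads1 in wild type −0.065 in batch 2 alone. The interaction was 0.052 for Fads1 in batch 1 alone and −0.078 for Elovl1 in batch 2 alone. Leaving out 1 library at a time gave, in fasted genotype, Fads1 −0.059 to 0.095, Elovl1 −0.068 to 0.033 and Elovl2 −0.074 to 0.084. In refed genotype it gave Fads1 −0.065 to 0.043, Fads2 −0.047 to 0.056 and Scd2 −0.26 to 0.0058, and over both states Fads1 −0.034 to 0.040. In K556R feeding it gave Fads1 −0.055 to 0.087 and Elovl2 −0.22 to 0.013, in wild-type feeding Fads1 −0.012 to 0.13, and in the interaction Fads1 −0.11 to 0.050 and Elovl2 −0.0094 to 0.21. Of 720 such values, 673 kept direction and call, 44 changed sign and 3, all of Scd2, lost the call. DESeq2 called 60, 3 and 40 genes of the whole table in the fasted, refed and averaged genotype comparisons and 2 in the interaction, against 0, 0, 4 and 0 by edgeR, which called 1, 0, 3 and 0 without the 2 libraries. Counts of all genes called were within 1.5 times in the feeding comparisons without the 2 libraries (5206 and 6803, against 5543 and 6263). As a set, same-numbered libraries were not alike: they had a median correlation of −0.056 over 24 pairs, 4 of them over 0.1, against 0.010 over 126 other pairs. The highest value, 0.65, joined the same-numbered K556R fasted and K556R refed libraries 1 of batch 1, the 2 that stood apart. Other pairs reached at most 0.50. A fit with the replicate block called 3 and 4 of the 6 genes in feeding, as without it, and moved Fads2 in the refed genotype comparison to 0.0058 and the Fads1 interaction to 0.017. By CPM without length, Elovl1 ranked below Scd2 in all 4 groups. Elovl1 and Scd2 had the lowest counts of the 6 genes (at least 796 and 892 per library).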
